A study of Mus musculus with 6 samples.

Results

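The 10 genes described here belong to the amino acid arm of the cellular stress response: Atf4, Atf3, Atf5, Ddit3, Trib3, Chac1, Ddit4, Sesn2, Asns and Psat1. They were chosen by name, with earlier results of these data known. Each was measured by 1 probe that the platform annotation assigns to that gene alone, and they are 10 of 19935 genes measured. Peritoneal macrophages, phagocytes of the abdominal cavity, came from the inbred mouse strain C57BL/6 and were cultured in medium with serum. Of the 6 arrays, 2 held untreated cells, 2 held cells given the double-stranded RNA poly I:C, a TLR3 ligand, at 2 ug/mL for 24 h, and 2 held cells given PAM, a lipopeptide ligand of TLR2, at 1 ug/mL for 24 h. The labels spell the lipopeptide PAMCSK3 for one PAM sample and PAMCSK4 for the other. How long the untreated cells were cultured, and whether the arrays of a group came from separate animals, is not given. The p-values therefore measure the spread between these arrays, which may be technical.

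When amino acids are short, proteins misfold or viral RNA is sensed, kinases phosphorylate the initiation factor eIF2, which slows most translation while translation of the Atf4 message increases. The transcription factor ATF4 then turns on genes for amino acid synthesis, uptake and tRNA charging, often through a composite C/EBP-ATF response element, together with the stress factors ATF3, ATF5, CHOP (Ddit3) and TRIB3. Because ATF4 is controlled largely at translation, the message level read by an array is not a measure of ATF4 protein. In macrophages this pathway is known to meet Toll-like receptor signalling.

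The deposited values are log signals, taken here as log2, expressed relative to the median of the same probe. A value of 0 is therefore the middle of that gene's own range, and no gene's level can be set against another's. The numbers still show that 4 of the 10 probes, those of Atf3, Atf4, Trib3 and Asns, had a signal of 8 or more in every sample before that centring, as did 27.7% of all probes and 1.45% of olfactory receptor probes. All 8 macrophage markers examined (Adgre1, Csf1r, Cd68, Itgam, Lyz2, Fcgr1, Mertk and Cd14) were in that class. Of other cell types' markers, 0 of 5 for B cells, 0 of 6 for neutrophils, 0 of 5 for mast cells, 1 of 6 for T and NK cells (Cd8a) and 3 of 7 for mesothelial cells and fibroblasts (the collagen genes Col1a1, Col1a2 and Col3a1) were in it. The class was inferred from the rounding steps of the stored values, so a probe below 8 can fall in it by coincidence. How often was not estimated, so any 1 probe, such as that of Cd8a, may be misplaced. Differences below are log2 differences ± SE with n = 2 arrays per group, tested with limma over all genes. In bulk RNA, more RNA per cell and more cells with the RNA cannot be told apart.

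The promoters of the 10 genes were searched on both strands for the C/EBP-ATF response element, spelled TGATGNAAN, and for the CRE, TGACGTCA. Promoters were taken from RefSeq (GRCm38.p6), from 250 bases before to 50 after each annotated start. The response element letters were found in 4 of the 10 genes, Asns, Atf3, Chac1 and Trib3, and in 4.5% of the 27025 genes in the promoter table. The CRE letters were found in 0 of the 10 and in 2.03% of all genes; the 2 spellings differ at fixed letters and cannot match the same stretch in one orientation. The 3 matches that lie before the start site are shown, 5′ to 3′ on the gene's own strand, with the matching 9 bases in capitals, because they are the stretches a reader would compare with the array values of these genes.
Asns: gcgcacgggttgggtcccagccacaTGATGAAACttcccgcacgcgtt
Atf3: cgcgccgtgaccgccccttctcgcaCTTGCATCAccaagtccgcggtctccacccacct
Chac1: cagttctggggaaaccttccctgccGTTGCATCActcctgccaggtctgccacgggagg
The Asns stretch is chr6:7693210-7693257 on the minus strand, and its match reads forward at bases -23 to -15 from the start. The Atf3 stretch is chr1:191183411-191183469 on the minus strand, with the match at -111 to -103, and the Chac1 stretch is chr2:119351023-119351081 on the plus strand, with the match at -194 to -186. In both of these the letters read TGATGCAAG and TGATGCAAC on the opposite strand. The Trib3 match, TGATGTAAA on the opposite strand, lies after the start, at 14 to 22. A match of letters describes the sequence and does not show that a factor binds there.

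Across the 10 genes, 7 rose with poly I:C and 0 fell by limma at an adjusted p under 0.05 (1 was lower at an unadjusted p under 0.05, Atf3). Of all genes, 12.1% were higher and 18.2% lower in that comparison. With PAM 6 rose and 1 fell, against 11.0% higher and 14.0% lower over all genes. The median difference of the 10 was 0.70 with poly I:C and 0.40 with PAM, where the medians over all genes were 0.01 and 0.00. Past the threshold and at least 2-fold were 4 of the 10 with poly I:C (4.82% of all genes), 3 with PAM (4.20%) and 3 between the ligands (4.97%). Both comparisons with untreated cells use the same untreated arrays, so their agreement for a gene is not independent. The genes were chosen with earlier results of these data known, so the contrast with all genes is descriptive only.

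**Figure D1:**
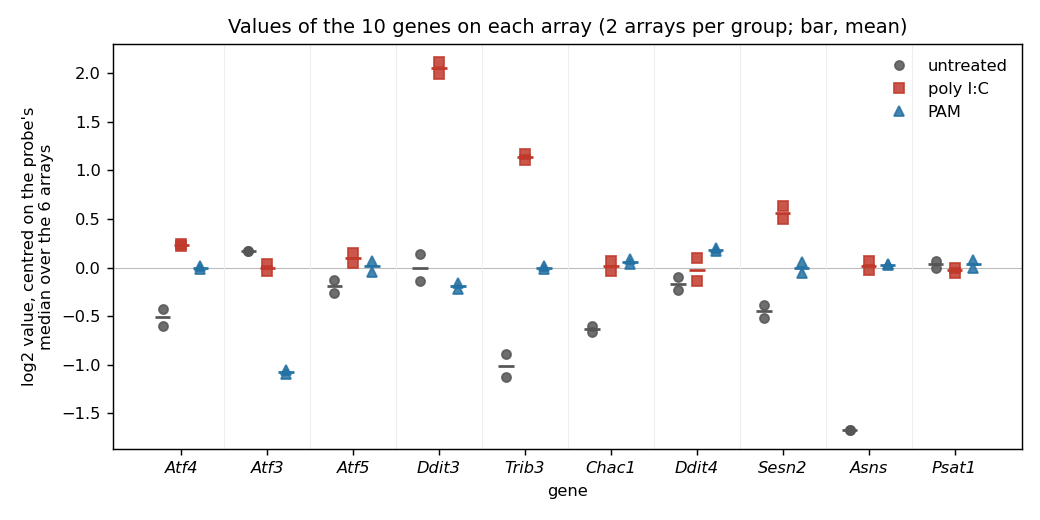
Log2 value of each of the 10 genes (x axis) on each of the 6 arrays, centred on the probe's median (y axis), with 2 points per group and a bar at their mean. Asns, Chac1, Atf4 and Trib3 are lowest in untreated cells, Ddit3 stands out with poly I:C, and Atf3 is low with PAM.

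Atf4, which encodes the central transcription factor of the pathway, rose with both ligands. Its centred values were -0.60 and -0.43 in untreated cells, 0.22 and 0.24 with poly I:C, and 0.01 and -0.01 with PAM. The 3 groups did not overlap, with untreated cells lowest and poly I:C highest. The difference from untreated cells was 0.74 ± 0.07 with poly I:C (1.67-fold; adjusted p = 6.19e-05, limma) and 0.51 ± 0.07 with PAM (1.43-fold; adjusted p = 0.000802, limma). Between the ligands it was 0.23 ± 0.07, at the edge of the threshold (adjusted p = 0.0474, limma). That last call ended with arrays centred on their median (adjusted p = 0.0537) and without any 1 of the 4 poly I:C and PAM arrays (adjusted p from 0.141 to 0.195).

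Atf3 encodes a factor of the same bZIP class that commonly represses inflammatory genes, and it did not follow Atf4. Its values were 0.17 and 0.17 in untreated cells, 0.04 and -0.04 with poly I:C, and -1.09 and -1.05 with PAM. Both PAM arrays lay far below the other 4. Atf3 fell with PAM by 1.25 ± 0.06 on the log2 scale (2.37-fold; adjusted p = 1.11e-06, limma), the only decrease among the 10 genes. With poly I:C the difference was -0.17 ± 0.06 and did not pass (adjusted p = 0.0807, limma), although it did among the genes at 8 or above on all arrays (adjusted p = 0.0197). The ligands differed by 1.07 ± 0.06, with poly I:C higher (adjusted p = 2.21e-06, limma).

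Atf5, a close relative of ATF4 that is itself controlled at translation, moved little. Its values were -0.13 and -0.26 in untreated cells, 0.15 and 0.05 with poly I:C, and -0.05 and 0.07 with PAM. Untreated cells were lowest, and the ligand groups overlapped. Atf5 rose with poly I:C by 0.29 ± 0.08 (adjusted p = 0.0199, limma), a call lost without untreated replicate 2 (0.23, adjusted p = 0.0973) or poly I:C replicate 1 (0.24, adjusted p = 0.135). With PAM the difference was 0.20 ± 0.08 (adjusted p = 0.0976, limma), and between the ligands it was 0.09, with a 95% interval from -0.09 to 0.26.

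Ddit3, which encodes CHOP, a factor tied to cell death under lasting stress, separated the ligands more than any other of the 10. Its values were -0.14 and 0.14 in untreated cells, 2.11 and 1.99 with poly I:C, and -0.16 and -0.22 with PAM. Only the poly I:C arrays were high, and both PAM arrays lay just below the untreated ones. Ddit3 rose with poly I:C by 2.05 ± 0.10 (4.14-fold; adjusted p = 4.26e-07, limma). With PAM it differed by -0.19 ± 0.10 (adjusted p = 0.216, limma), with an interval from -0.41 to 0.03. The direct difference was 2.24 ± 0.10, or 4.72-fold higher with poly I:C (adjusted p = 2.41e-07, limma). Without untreated replicate 1 the decrease with PAM passed (-0.32, adjusted p = 0.0215).

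Trib3 encodes a pseudokinase that is induced by ATF4 and CHOP and restrains ATF4 activity. Its values were -0.89 and -1.12 in untreated cells, 1.10 and 1.17 with poly I:C, and 0.02 and -0.02 with PAM. The groups stood in 3 separate steps, with PAM between the other 2. Trib3 rose by 2.15 ± 0.08 with poly I:C (4.43-fold, adjusted p = 1.36e-07, limma), the largest estimate of the 10. Ddit3 was close (2.05), and without untreated replicate 2 it was the larger, at 2.19 against 2.03 for Trib3. With PAM Trib3 rose by 1.01 ± 0.08 (2.01-fold, adjusted p = 2.38e-05, limma). The ligands differed by 1.14 ± 0.08 (adjusted p = 8.66e-06, limma).

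Chac1, which encodes an enzyme that breaks down glutathione and is a known CHOP and ATF4 target, did not share the Ddit3 pattern. Its values were -0.60 and -0.66 in untreated cells, 0.07 and -0.04 with poly I:C, and 0.08 and 0.04 with PAM. Untreated arrays were lowest and the ligand groups overlapped. The increases were 0.65 ± 0.07 with poly I:C (adjusted p = 9.24e-05, limma) and 0.69 ± 0.07 with PAM (adjusted p = 7.36e-05, limma). Between the ligands Chac1 differed by -0.04, with an interval from -0.20 to 0.11.

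Ddit4 and Sesn2 encode inhibitors of the growth kinase complex mTORC1, REDD1 and Sestrin 2, the latter also a leucine sensor. For Sesn2 the values were -0.52 and -0.38 in untreated cells, 0.63 and 0.50 with poly I:C, and 0.06 and -0.06 with PAM. These were 3 steps in the same order as for Trib3. Sesn2 rose by 1.01 ± 0.08 with poly I:C (2.02-fold; adjusted p = 1.58e-05, limma) and by 0.45 ± 0.08 with PAM (1.37-fold; adjusted p = 0.00312, limma), and the ligands differed by 0.56 ± 0.08 (adjusted p = 0.000669, limma). Ddit4 had values of -0.09 and -0.23 in untreated cells, 0.09 and -0.14 with poly I:C, and 0.17 and 0.20 with PAM. PAM arrays were highest, and the poly I:C arrays overlapped the untreated ones. Ddit4 rose with PAM by 0.35 ± 0.09 (1.27-fold; adjusted p = 0.0202, limma), a call lost without untreated replicate 2 (adjusted p = 0.0872), PAM replicate 1 (0.0763) or PAM replicate 2 (0.105). With poly I:C it differed by 0.14 ± 0.09 (adjusted p = 0.31, limma). Between the ligands the difference was -0.21 ± 0.09 (adjusted p = 0.134, limma), and without poly I:C replicate 1 it passed (-0.32, adjusted p = 0.0464).

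The 2 biosynthetic enzymes of the set behaved differently from each other. Asns, the synthetase that makes asparagine, had values of -1.68 and -1.67 in untreated cells, -0.02 and 0.06 with poly I:C, and 0.03 and 0.02 with PAM. Both untreated arrays were far below the 4 ligand arrays, which overlapped. The increases were 1.69 ± 0.07 with poly I:C (3.23-fold; adjusted p = 1.18e-07, limma) and 1.70 ± 0.07 with PAM (3.25-fold; adjusted p = 1.59e-07, limma). Between the ligands Asns differed by -0.01 ± 0.07, with an interval from -0.16 to 0.14, so a difference beyond 1.11-fold lay outside it. Psat1, an enzyme of serine synthesis, stayed between -0.06 and 0.08 on all 6 arrays, and its groups overlapped. It differed by -0.07 ± 0.07 with poly I:C (interval from -0.22 to 0.09) and by 0.00 ± 0.07 with PAM (interval from -0.16 to 0.15), and its probe lay below 8 on at least 1 array.

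**Figure D2:**
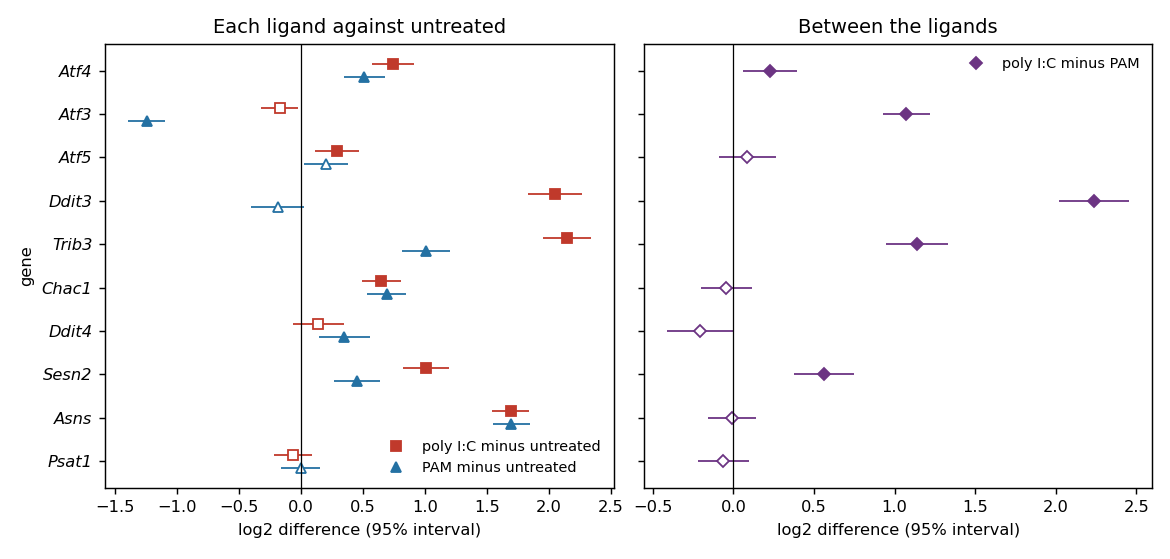
Log2 differences of the 10 genes with 95% intervals (x axis), for each ligand against untreated cells (left) and for poly I:C minus PAM (right), n = 2 arrays per group. Filled symbols passed an adjusted p of 0.05; Ddit3, Trib3, Atf3, Sesn2 and Atf4 did so between the ligands, all higher with poly I:C, while Asns lay at -0.01.

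In the direct comparison poly I:C gave higher values than PAM for 5 of the 10 genes and lower values for 0 by limma (1 was lower at an unadjusted p under 0.05, Ddit4), where 12.9% of all genes were higher and 15.8% lower. The differences ran from 2.24 for Ddit3 through 1.14 for Trib3, 1.07 for Atf3 and 0.56 for Sesn2 to 0.23 for Atf4. Atf3 reached this list through its decrease with PAM and the other 4 through larger values with poly I:C. The ligands were compared only at the doses and the single time given.

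Regulators of eIF2 phosphorylation moved both ways with poly I:C, 4 of 8 measured genes higher and 3 lower (median 0.11). For this list and those that follow, the array-wide shares were 12.1% rising and 18.2% falling under poly I:C. Under PAM they were 11.0% and 14.0%. The lists were chosen with earlier results of these data known, so such contrasts are descriptive only. Eif2ak2, which encodes PKR, the double-stranded RNA-activated kinase, rose by 2.12 ± 0.10 (adjusted p = 3.43e-07, limma), and Ppp1r15a, the phosphatase subunit GADD34, rose by 0.62. Eif2ak3, which encodes the ER stress kinase PERK, fell (-0.91), as did Impact, an inhibitor of GCN2 activation (-0.49). The message of GCN2 itself, Eif2ak4, the kinase that senses uncharged tRNA, differed by 0.03 with poly I:C and by -0.02 with PAM. With PAM 2 rose, Eif2ak2 (0.58) and Ppp1r15a (0.39), and 1 fell, Impact (-0.30; median 0.01). Without untreated replicate 1 or poly I:C replicate 1 the count higher with poly I:C was 2. With PAM the Ppp1r15a call ended without untreated replicate 1 (0.24, adjusted p = 0.129), PAM replicate 1 (0.28, adjusted p = 0.217) or either poly I:C array, and the Impact call without PAM replicate 1 (-0.25, adjusted p = 0.11).

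Other enzymes of serine, one-carbon, proline and cysteine synthesis rose in 3 of 8 cases with poly I:C and in 6 of 8 with PAM, and 0 fell by limma with either (1 and 0 at an unadjusted p under 0.05). The medians were 0.09 and 0.55. Mthfd2, a mitochondrial folate enzyme, rose by 1.31 ± 0.07 and 1.44 ± 0.07, and Phgdh, which opens serine synthesis, by 0.73 ± 0.13 and 1.14 ± 0.13. Phgdh passed with both ligands, and Psat1, which acts after it in the same pathway, with neither. Of 9 amino acid transporters 7 rose with poly I:C (median 0.66), led by Slc7a11, the cystine carrier (1.39), and Slc7a5, a carrier of large neutral amino acids (1.17), and 1 fell, the glutamine carrier Slc1a5 (-0.49). With PAM 7 rose and 0 fell by limma (also 0 at an unadjusted p under 0.05; median 0.41), led by Slc7a11 (5.14) and the glycine carrier Slc6a9 (1.74).

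The cytosolic tRNA synthetases, which charge tRNAs with amino acids, rose in 9 of 11 cases with poly I:C (median 0.40) and in 11 of 11 with PAM (median 0.44). With poly I:C the tryptophan enzyme Wars rose most (1.38 ± 0.06), followed by the cysteine enzyme Cars (0.80), and the isoleucine enzyme Iars fell (-0.26). That decrease did not pass without untreated replicate 2 (adjusted p = 0.064) or without either poly I:C array (0.0644 and 0.0909). The count higher with poly I:C was 6 to 8 when 1 array was left out, lowest without poly I:C replicate 2. With PAM it was 8 or 9 when 1 array was left out, and Cars, Nars and Sars lay near the threshold (adjusted p = 0.0465, 0.0433 and 0.0422, limma). With PAM the increases of Tars (0.72) and Wars (0.68) were the largest of the list, and 0 fell by limma (also 0 at an unadjusted p under 0.05). Among 11 other genes linked to ATF4 or CHOP, 4 rose and 1 fell with poly I:C (median 0.19), and 6 rose with PAM with 0 lower by limma (also 0 at an unadjusted p under 0.05; median 0.38). Nupr1, a stress-induced chromatin protein, rose by 2.34 ± 0.08 and 1.42 ± 0.08, and Cebpb, a partner of ATF4, by 0.62 and 1.25. Herpud1, an ER degradation factor, fell with poly I:C (-0.59 ± 0.06) and rose with PAM (1.20 ± 0.06).

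ER chaperones and folding genes, which answer mainly to the ATF6 and XBP1 arms, ran opposite ways with the ligands. With poly I:C 13 of 16 fell and 0 rose by limma (1 was higher at an unadjusted p under 0.05; median -0.57), among them Sdf2l1 (-1.50 ± 0.07) and Hyou1 (-0.93 ± 0.06). With PAM 12 of 16 rose and 0 fell by limma (also 0 at an unadjusted p under 0.05; median 0.41), among them Creld2 (1.00 ± 0.07) and Hyou1 (0.88 ± 0.06). In the direct comparison all 16 passed, with lower values under poly I:C, where 15.8% of all genes were lower. Of the 16, 7 were at least 2-fold lower. Ddit3 thus rose on the arrays on which these chaperone genes fell, and did not pass on those on which they rose.

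**Figure D3:**
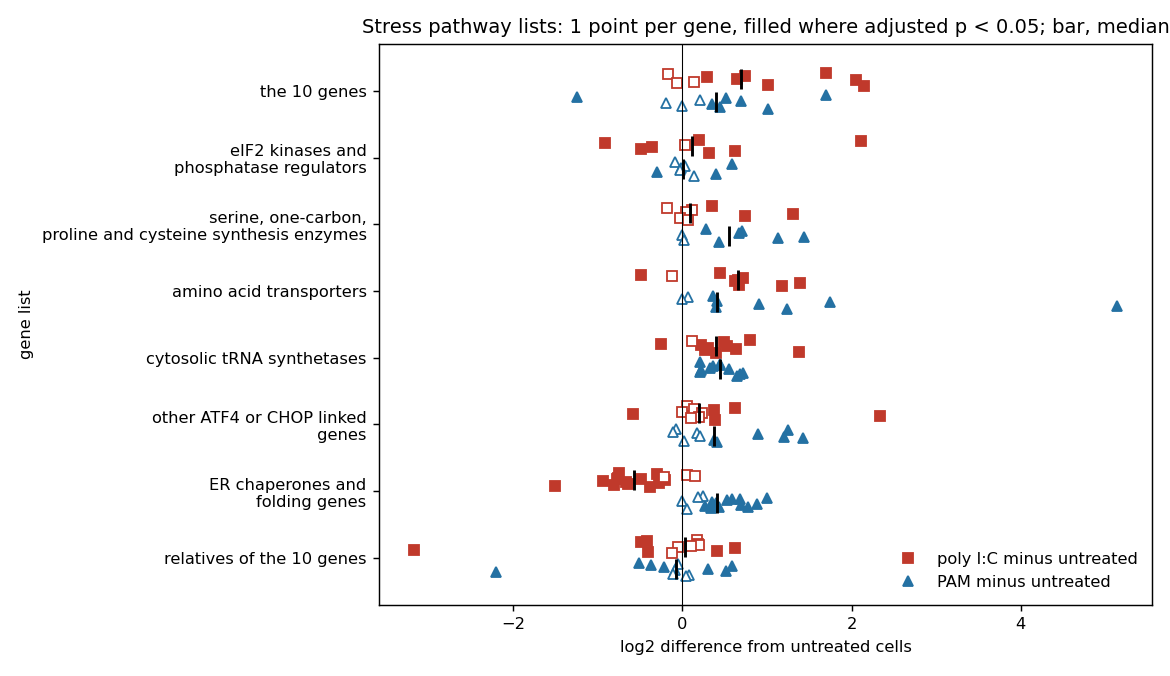
Log2 difference from untreated cells (x axis) for each gene of the 10 and of 7 related lists (y axis), with poly I:C as squares and PAM as triangles, filled where adjusted p was under 0.05 and with a bar at the list's median. The ER chaperone medians lie at -0.57 and 0.41, on opposite sides of 0, whereas those of the 10 genes lie at 0.70 and 0.40.

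Family relatives of the 10 genes moved both ways. Sesn1, the sestrin best known as a p53 target, fell by 3.17 ± 0.09 on the log2 scale with poly I:C (adjusted p = 1.9e-08, limma) and by 2.20 ± 0.09 with PAM (adjusted p = 2.6e-07, limma), whereas Sesn3 rose with poly I:C (0.40 ± 0.06) and differed by -0.11 with PAM. Among tribbles genes Trib1 fell with poly I:C (-0.41) and differed by 0.07 with PAM, and Trib2 passed with neither (-0.12 and 0.04). Ddit4l, the relative of Ddit4, differed by -0.05 and -0.09 without passing. Of the other ATF-type genes, Jdp2, a repressor related to ATF3, rose by 0.63 and 0.51, and Atf6, which encodes an ER stress sensor, fell with both (-0.49 and -0.37). Atf2 fell with poly I:C (-0.41) and differed by -0.05 with PAM. With PAM Atf6b rose (0.58), Atf1 fell (-0.51) and Atf7 fell (-0.22), and with poly I:C these 3 did not pass (0.18, 0.17 and 0.20). Chac2, the relative of Chac1, rose with PAM (0.30) and differed by 0.10 with poly I:C. The Atf7 call was lost without any 1 of the 6 arrays (adjusted p from 0.0542 to 0.249), and the Chac2 call without untreated replicate 2 (adjusted p = 0.0531) or PAM replicate 1 (0.181). In all, 2 of 12 relatives rose and 4 fell with poly I:C, and 3 rose and 4 fell with PAM. Among the 19935 genes measured, poly I:C raised 12.1% and lowered 18.2%, and PAM raised 11.0% and lowered 14.0%.

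The genes outside the set with the most similar values were found by the root mean square difference of centred values over the 6 arrays. Closest to Atf4 were Riox2 (0.051), Ncf4, a subunit of the phagocyte NADPH oxidase (0.052), and Donson (0.053). Closest to Asns were Tnfsf15, a TNF family cytokine (0.11), the copper transporter Slc31a2 (0.14) and Cflar, the caspase 8 inhibitor (0.15). Closest to Trib3 were the receptor Tnfrsf14 (0.068), Parp9 (0.081) and Tent5c (0.093), and closest to Atf3 were Crebrf (0.056), Mfsd12 (0.066) and Plekhm1 (0.074). With 6 arrays in 3 groups, such likeness reflects mainly the 3 group means.

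Some markers of other cells moved as well. Their counts are to be read against the whole array, where 12.1% of the 19935 genes passed upward and 18.2% downward under poly I:C. Under PAM these shares were 11.0% and 14.0%. The mean centred value of 6 neutrophil markers was 0.36 and 0.41 on the PAM arrays, from -0.12 to 0.03 on the untreated arrays and from -0.09 to 0.02 on the poly I:C arrays, with 2 of 6 higher with PAM. These were S100a8 (2.04) and Camp (0.64), and the median difference of the 6 was 0.02; markers named in this paragraph were chosen after their values were seen. For 5 B cell markers the means ran from -0.21 to -0.07 in untreated cells, from 0.00 to 0.04 with poly I:C and from 0.02 to 0.19 with PAM, with 2 of 5, Ms4a1 and Cd79b, higher with each ligand. For 7 mesothelial and fibroblast markers they ran from -0.03 to 0.22, from -0.17 to -0.12 and from 0.02 to 0.05, with 3 lower with poly I:C (Col3a1, Upk3b and Col1a1) and 1 lower with PAM (Upk3b). Of 6 T and NK cell markers and 5 mast cell markers 0 passed with either ligand by limma (0 of the former and 1 of the latter, lower, at an unadjusted p under 0.05). Leaving out 1 array lost the calls of Ms4a1 and Upk3b with either ligand (adjusted p from 0.0531 to 0.161) and those of Cd79b (0.089) and Col1a1 (0.0522) with poly I:C. The part of such cells in the differences of the 10 genes was not tested.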

How the data were processed

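Total RNA was made into biotin-labelled cRNA for an Affymetrix array, per the labels' protocols. The authors deposited a log2 table of 28815 probes on 6 arrays, with each probe's median subtracted (largest remaining median 5e-07) and array medians from -0.0049 to 0.0072. The log base was taken as 2; neither it nor the background correction and summarization is stated in the sources used here. Whether a probe lay at 8 or above on all arrays was read from the single-precision steps of its values.

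Probes with 1 gene symbol in the platform annotation (21780) were averaged per gene; 1605 with several symbols and 5430 with none were left out. One mean per group was fitted to all 19935 genes and 6 arrays with lmFit and eBayes without trend (limma 3.58.1, R 4.3.3; 3 residual and 5.68 prior degrees of freedom), with Benjamini-Hochberg adjustment within each comparison at 0.05. The fit code was also run on simulated data with independent noise drawn from the spread of these arrays. That run cannot address whether the arrays of a group are technical replicates. Python 3.11.15 was used for tables, promoters and figures. Named by rule were the 10 genes, all relatives, and up to 2 genes per list, direction and comparison. The rule also took the 3 nearest genes to each of Atf4, Asns, Trib3 and Atf3. Eif2ak4, Nars, Sars and the cell type markers were named outside this rule. Of 79 list genes 75 were measured by a probe with 1 symbol. The genes and lists were chosen with earlier results of these data known. Alternatives were array centring, trend and robust variance, the 4 arrays compared, a replicate block, leaving out each array, a 2-fold minimum, single probes, and probes at 8 or above.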

Additional observations from a re-analysis of the deposited data

Results flagged for a closer look

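The response to poly I:C and the response to PAM differed, by the direct limma test between the ligands, for 5 of the 10 genes. Poly I:C minus PAM was 2.24 for Ddit3 (adjusted p = 2.41e-07), 1.14 for Trib3 (adjusted p = 8.66e-06), 1.07 for Atf3 (adjusted p = 2.21e-06), 0.56 for Sesn2 (adjusted p = 0.000669) and 0.23 for Atf4 (adjusted p = 0.0474). The Atf4 call was lost with arrays centred (adjusted p = 0.0537) and without any 1 of the 4 ligand arrays (adjusted p from 0.141 to 0.195).

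The same test passed for named genes of the related lists. Poly I:C gave the higher value for Eif2ak2 (1.53), Nupr1 (0.91), Wars (0.70), Atf1 (0.68), Cars (0.59), Sesn3 (0.51), Atf7 (0.42), Slc3a2 (0.30), Eif2ak1 (0.29), Slc7a3 (0.28) and Cebpg (0.26). Of these, Eif2ak1 and Slc3a2 did not pass without PAM replicate 1 (adjusted p = 0.0705 and 0.0697), and Eif2ak1 also not without poly I:C replicate 1 (0.0583). Slc7a3 and Cebpg did not pass without PAM replicate 1, PAM replicate 2 or poly I:C replicate 2 (adjusted p from 0.0818 to 0.253). It gave the lower value for Slc7a11 (-3.76), the ER genes Sdf2l1 (-1.84), Hyou1 (-1.82), Herpud1 (-1.79), Creld2 (-0.94) and Ero1a (-0.89), and the glycine carrier Slc6a9 (-1.08). The value with poly I:C was also below that with PAM for Sesn1 (-0.97), Eif2ak3 (-0.95), the folate enzyme Aldh1l2 (-0.88), Cebpb (-0.63), Iars (-0.62), Cth (-0.56), Slc1a5 (-0.56), Trib1 (-0.48), Tars (-0.45), Atf6b (-0.40), Atf2 (-0.36) and Gcn1 (-0.33). These are differences between the ligands, and some of the genes rose or did not pass against untreated cells, as Tars (0.27) and Cebpb (0.62), which rose with poly I:C.

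Among markers of other cells, poly I:C minus PAM passed for 2 of 6 neutrophil markers, S100a8 (-2.33) and Camp (-0.47). The other neutrophil markers did not pass, and the median of the 6 was 0.002. The direct difference also passed for 3 of 7 mesothelial and fibroblast markers, the collagen genes Col3a1 (-0.71), Col1a1 (-0.55) and Col1a2 (-0.33). Of 5 B cell markers 1 passed, Cd79b (-0.27). Over all genes, 15.8% were lower and 12.9% higher in this comparison. Col1a2 passed with neither ligand against untreated cells. Leaving out a ligand array lost the calls of Camp, Cd79b, Col1a2 and, among the relatives, Atf2.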

How the results depend on the processing

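Requiring at least 2-fold left 4 genes higher with poly I:C, 2 higher with PAM and 3 higher between the ligands. Only 4 of the 10 genes lay at 8 or above on all arrays. With the fit limited to such genes, poly I:C raised 3 of the 4 and lowered 1, Atf3. With PAM 3 were higher and Atf3 was lower, and 3 were higher between the ligands. The share of all such genes that passed was not computed, so these 4 cannot be set against a background. Leaving out 1 array gave 6 to 7 higher and 0 lower with poly I:C, 5 to 6 higher and 1 to 2 lower with PAM, and 4 to 5 higher and 0 to 1 lower between the ligands. Single genes kept direction and side of the threshold in 374 of 402 recomputed values, 20 calls were lost and 3 gained. The single-probe, trend, robust, 2-fold, replicate block, 4-array and 8-or-above settings leave each difference as it is, so its direction could not change there. The same holds when an array of the group not compared is left out. Only array centring and leaving out an array of a compared group could change a direction. With 1 probe per gene, all 30 single-probe values were among the 374. Sign changed in 5 of the 402 values, all of differences near 0 that passed in no setting. Leaving out 1 array, Psat1 with PAM ran from -0.045 to 0.040, Asns between the ligands from -0.052 to 0.037 and Chac1 between the ligands from -0.097 to 0.0085, and with arrays centred Psat1 with PAM was 0.0020. With the replicate number as a block, 7 genes were again higher with poly I:C, 6 higher and 1 lower with PAM, and the Atf4 difference between the ligands was lost (adjusted p = 0.0543); no other call among the 10 changed. Deviations of equally numbered arrays correlated at -0.07, 0.15 and -0.01, so the numbers were not taken as pairs. For the 7 related lists, alternatives were chosen after seeing the data and gave 42 counts each. A 2-fold minimum moved 33 of them by over 1.5 times, among them ER genes lower with poly I:C from 13 to 1 and higher with PAM from 12 to 0, and tRNA synthetases higher from 9 to 1 and from 11 to 0. The replicate block took tRNA synthetases higher with PAM from 11 to 8, eIF2 regulators higher with poly I:C from 4 to 3, relatives lower with PAM from 4 to 3 and synthesis enzymes lower between the ligands from 3 to 4. Array centring changed 1 count, and leaving out 1 array moved 1 to 5 by over 1.5 times. With 2 arrays per group, precision is limited by their number, and signal over background is unknown for the 6 probes below 8 on at least 1 array.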
